A study of Mus musculus with 76 samples.

Results

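Single macrophages of the mouse atrioventricular (AV) node were chosen by their measured level of Apoe transcript, with 35 Apoe-high cells at 10000 CPM or more (reads scaled to 1000000 per cell) set against 13 Apoe-low cells below 1000 CPM. The 48 cells come from 75 in all, and 27 cells between the thresholds were left out of this comparison. All cells are wild-type (WT) C57BL/6J macrophages with no treatment, taken from the triangle of Koch and sorted as CD45/CD11b high, F4/80 high, Ly6C low to intermediate and low for a mix of antibodies to lymphoid, neutrophil and erythroid lineages. Each library is 1 cell captured on a Fluidigm C1 chip. The sex, age and number of the mice are not given in the sources used here, and no label ties a cell to an animal, chip or day. The cells are therefore 1 sample: no p-value is given, and every difference below describes these cells, not the spread between animals.

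Apoe encodes apolipoprotein E, a secreted lipid carrier that binds receptors of the LDL receptor family and takes up cholesterol exported by the transporters Abca1 and Abcg1. Macrophages are a known source of it outside the liver, and its gene is a target of the sterol-sensing LXR receptors. In the heart, macrophages long resident in the tissue carry markers such as Lyve1, Timd4 and Folr2, while cells recently derived from blood monocytes carry the chemokine receptor Ccr2.

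Apoe itself chose the groups, so its values are a description only. It ranged from 10195 to 38142 CPM in Apoe-high cells, with a median of 17756 CPM, and from 6.5 to 478.8 CPM in Apoe-low cells, with a median of 26.2 CPM. Of the Apoe-low cells, 8 held less than 30 CPM. The upper threshold cuts a continuous range, with cells at 10195 CPM just above and 9867 CPM just below it. At the lower one the nearest cells lay at 1141 CPM above and 478.8 CPM below.

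Both groups carried macrophage transcripts. Lyz2 (lysozyme), Tyrobp and Fcer1g (adaptors of activating receptors), Fcgr3 and Ctss (cathepsin S) reached 10 CPM in all 35 Apoe-high and all 13 Apoe-low cells. The 18 macrophage markers with values summed to a median of 40722 CPM in Apoe-high cells (20630 to 72852) and 41523 CPM in Apoe-low cells (8527 to 61675). Csf1r, which encodes the macrophage growth factor receptor, had a median of 2984 CPM in Apoe-high and 376 CPM in Apoe-low cells, and Emr1, which encodes F4/80, had a median of 445 CPM in Apoe-high and 102.7 CPM in Apoe-low cells. Of the 18 markers, 3 were called higher in Apoe-high cells (16.7%, beside 1.46% over all genes) and 2 lower (11.1%, beside 4.61%). Those higher were Csf1r, Aif1, at 10 CPM or more in 31 of 35 Apoe-high and 5 of 13 Apoe-low cells, and the Fc receptor gene Fcgr1, in 17 and 2 cells. Those lower were Ptprc, which encodes CD45, and the lysozyme gene Lyz1, whose near-identity with Lyz2 makes its value uncertain. The call was lost in 25 of the 48 comparisons that left out 1 cell for Fcgr1 and in 11 for Lyz1. Mertk reached 10 CPM in 10 of 35 Apoe-high and 0 of 13 Apoe-low cells and Cx3cr1 in 10 and 1 cells, and neither was called. Markers of other cell types were mostly at or near 0, apart from the B cell gene Ighm. The 4 cardiomyocyte genes with values summed to at most 821.8 CPM in any Apoe-high cell and 21.2 CPM in any Apoe-low cell. The 2 fibroblast genes summed to at most 2661 CPM in Apoe-high and 451.1 CPM in Apoe-low cells, the 1 endothelial gene to at most 1281 and 83.6 CPM in these groups, the 2 neuron and Schwann cell genes to at most 459.5 and 225.3 CPM, and the 2 neutrophil genes to at most 1369 and 406.1 CPM. The only T cell gene, Lck, reached at most 357.9 CPM in Apoe-high cells and was at 0 in every Apoe-low cell. Of 3 B cell genes, Ighm reached 10 CPM in 24 of 35 Apoe-high and 7 of 13 Apoe-low cells, while Cd79b did so in 3 and 0 cells and Ebf1 in none. Ighm had a median of 569.5 CPM in Apoe-high cells (highest 3758) and 124.4 CPM in Apoe-low cells (highest 1827), and was not called. Of 7 dendritic cell genes, Bst2 reached 10 CPM in 12 of 35 Apoe-high and 4 of 13 Apoe-low cells, Irf4 in 8 and 4, Siglech in 7 and 0, Kmo in 6 and 3, and Zbtb46 in 3 and 0. Batf3 did so in 6 Apoe-high and 7 Apoe-low cells and Cd209a in 1 and 3. Of the 6 compared none was called and 3 had a positive difference, and the summed level of all 7 ran up to 6428 CPM in Apoe-high and 7050 CPM in Apoe-low cells. The only platelet gene with values, Pf4, is described below. The NK cell, smooth muscle, adipocyte and erythroid lists had no gene with values. The part of other cells in the differences below was not tested.

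Technical measures differed between the groups. The estimated depth was 259554 to 6070763 reads per Apoe-high cell (median 2035623) and 974547 to 5871116 reads per Apoe-low cell (median 2604801). Apoe-high cells had 2324 to 4230 genes above 0 (median 2978) and Apoe-low cells 3005 to 4327 (median 3678). The gap remained after every cell was thinned to 250000 reads, at a median of 2139 genes in Apoe-high and 2607 genes in Apoe-low cells. The part of genes detected per cell in the differences below was not tested. Y-linked transcripts were above 0 in 30 of 35 Apoe-high and 12 of 13 Apoe-low cells.

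Of 8350 other genes above 0 in at least 8 of the 75 cells, 122 were called higher in Apoe-high than in Apoe-low cells (1.46%) and 385 were called lower (4.61%). A gene was called when the means of log2(CPM + 1) differed by at least 1 and, in addition, the group with the higher mean had the higher value in at least 70% of all pairs made of 1 Apoe-high and 1 Apoe-low cell, with tied pairs split evenly. This share of pairs is given below as the percentage of pairs in which the Apoe-high cell was higher, so that low percentages mean lower values in Apoe-high cells. It is a rule of size, not a test. The median difference over all 8350 genes was -0.16 on the log2 scale, and 41.2% of them had a positive difference. CPM are not per length of transcript, so levels are compared between cells and not between genes.

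By share of pairs, Itm2b and S100a6 stood at the ends of all 8350 genes. Itm2b, which encodes an integral membrane protein, ranged from 2138 to 12909 CPM in Apoe-high cells (median 4591) and from 62.6 to 3562 CPM in Apoe-low cells (median 552.9). The Apoe-high cell was higher in 96.9% of pairs, and the ranges overlapped only between 2138 and 3562 CPM. S100a6, which encodes a calcium-binding protein, ranged from 0 to 1073 CPM in Apoe-high cells (median 0.5) and from 97.2 to 2147 CPM in Apoe-low cells (median 837.7). The Apoe-high cell was higher in 4.18% of pairs. Over all 75 cells Itm2b also had the highest Spearman correlation with Apoe among genes above 0 in at least 50% of the cells, at 0.60, followed by C1qa (0.509), Blvrb (0.489), Cst3 (0.445) and Ly6e (0.438). The lowest were those of S100a10 (-0.479), Anxa2 (-0.454), S100a6 (-0.454), Hsp90aa1 (-0.452) and Ccni (-0.449). Depth and genes detected vary among them.

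The promoters of the gene that chose the cells and of the genes at both ends of the pair shares are shown as the 250 bases before the first transcription start listed for each gene by RefSeq (build GRCm38.p6, 5′ to 3′ on the strand of the gene). They lie at chr7:19699189-19699438 (minus strand), chr14:73385290-73385539 (minus strand) and chr3:90612644-90612893 (plus strand). Capitals would mark matches to 3 motifs searched on both strands, the Maf core TGCTGAC, the PU.1 core GAGGAAGT and the LXR element made of 2 copies of AGGTCA with 4 bases between them, and none of the 3 windows held one.
Apoe: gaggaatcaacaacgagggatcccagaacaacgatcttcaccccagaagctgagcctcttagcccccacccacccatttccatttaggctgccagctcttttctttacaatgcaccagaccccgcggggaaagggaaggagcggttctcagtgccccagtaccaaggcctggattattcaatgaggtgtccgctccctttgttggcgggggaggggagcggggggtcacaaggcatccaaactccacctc
Itm2b: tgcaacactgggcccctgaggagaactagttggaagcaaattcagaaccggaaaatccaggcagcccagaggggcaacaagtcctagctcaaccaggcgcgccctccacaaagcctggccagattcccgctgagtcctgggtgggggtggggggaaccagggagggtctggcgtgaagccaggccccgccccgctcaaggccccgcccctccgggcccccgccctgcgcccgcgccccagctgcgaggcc
S100a6: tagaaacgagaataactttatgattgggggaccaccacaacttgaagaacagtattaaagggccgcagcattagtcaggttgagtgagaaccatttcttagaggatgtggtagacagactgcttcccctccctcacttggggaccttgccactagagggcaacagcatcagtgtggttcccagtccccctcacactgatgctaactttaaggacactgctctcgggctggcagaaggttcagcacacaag
Of 5647 compared genes with a RefSeq promoter, 2.78% held the Maf core, 3.03% the PU.1 core and 0 the LXR repeat. With no match in any promoter, the search for the LXR repeat by exact letters could not set genes apart. Among the 85 genes called higher with a promoter, 3.53% held the Maf core and 4.71% the PU.1 core, and among the 266 called lower the shares were 4.14% and 4.89%. These are matches of letters in a short window and say nothing of binding.

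Among the gene lists, all chosen with earlier results of these data known, tissue-resident genes formed the largest block of transcripts higher in Apoe-high cells. Of 22 compared, 17 were called higher (77.3%, beside 1.46% over all genes) and none lower. All 22 had a positive difference, beside 41.2% of all genes, with a median of 4.05 beside -0.16 over all genes. Their summed level ran from 11259 to 58943 CPM in Apoe-high cells (median 35849) and from 487.6 to 50469 CPM in Apoe-low cells (median 5082). Folr2, a folate receptor, had a median of 1729 CPM in Apoe-high cells (0.7 to 5099) and 3.3 CPM in Apoe-low cells (0.7 to 1734), and reached 10 CPM in 32 of 35 cells (91.4%, exact 95% interval 76.9 to 98.2%) and in 3 of 13 cells (23.1%, 5.04 to 53.8%). Lyve1, a hyaluronan receptor, had a median of 696.4 CPM in Apoe-high cells (0.5 to 6154) and 1.8 CPM in Apoe-low cells (0 to 971.6). The transcription factor gene Maf was at 387.4 CPM or more in every Apoe-high cell (median 1386, highest 4420), whereas Apoe-low cells ran from 0.7 to 1856 CPM (median 16.5), and the Apoe-high cell was higher in 90.8% of pairs. Others called were Cbr2 (carbonyl reductase), Igf1 (a growth factor), Stab1 (a scavenger receptor), Gas6 (a bridging protein of engulfment), Sepp1 (a selenium carrier), F13a1 (a coagulation factor subunit), the mannose receptor gene Mrc1 and Timd4, a receptor for phosphatidylserine, at differences between 2.06 for F13a1 and 6.26 for Cbr2. F13a1 and Mrc1 were common in both groups, with 34 of 35 and 35 of 35 Apoe-high cells and 13 and 11 of 13 Apoe-low cells at 10 CPM.

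The leading single genes outside that list were Ly6e, a GPI-anchored surface protein, and Pf4, a chemokine also called platelet factor. Ly6e had a median of 2058 CPM in Apoe-high cells (1 to 14206) and 1.8 CPM in Apoe-low cells (0.3 to 2679), a difference of 6.61 (SD 3.21 in Apoe-high and 3.66 in Apoe-low cells). Pf4 had a median of 1886 CPM in Apoe-high cells (78.9 to 5895) and 5.1 CPM in Apoe-low cells (0 to 1633), a difference of 6.45 (SD 1.26 in Apoe-high and 3.94 in Apoe-low cells). All 35 Apoe-high cells and 6 of 13 Apoe-low cells held Pf4 at 10 CPM or more. AI607873, Adap2, Prune2 and Ms4a7 were also among the 12 largest positive differences, at 5.50 to 5.66, as was Cd63, described with the lysosomal genes.

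**Figure D1:**
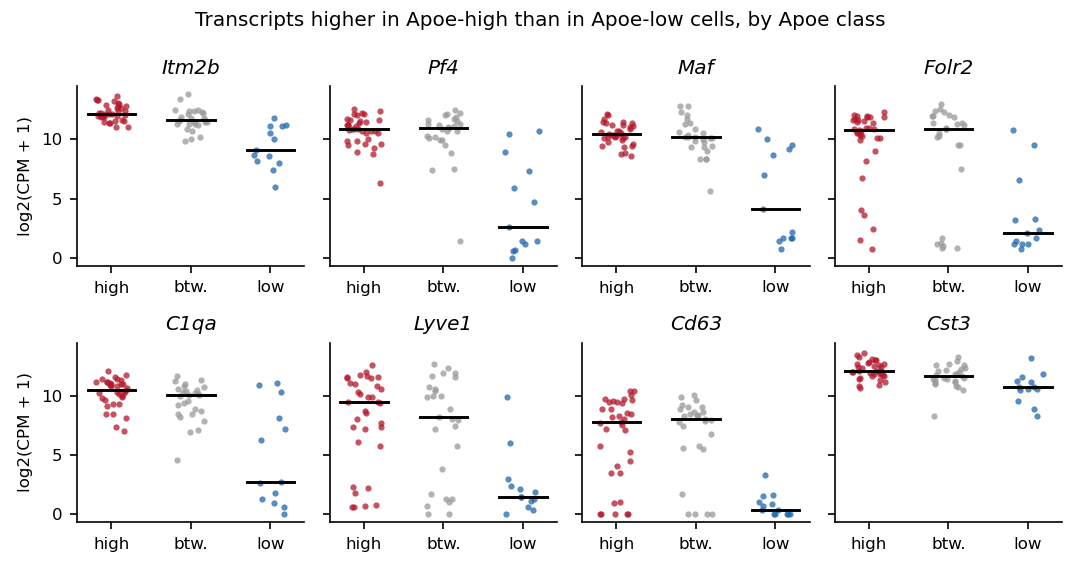
Each point is 1 cell, placed by log2(CPM + 1) of the gene named above the panel in Apoe-high cells (n = 35), cells between the thresholds (n = 27) and Apoe-low cells (n = 13), and bars mark medians. The medians of Apoe-high cells and cells between lie near each other, and the median of Apoe-low cells lies below both. Most panels have 1 or a few Apoe-low cells among the high values. Cd63 has none, at 9.2 CPM or less in Apoe-low cells, and for Cst3 the ranges overlap widely (309 to 9244 CPM in Apoe-low, 1580 to 12636 CPM in Apoe-high cells).

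Complement genes followed the same direction. Of 10 compared, 6 were called higher (60%, beside 1.46% over all genes) and none lower, at a median difference of 3.93. C1qa, which encodes a chain of the C1q recognition molecule, ranged from 131.1 to 4463 CPM in Apoe-high cells (median 1441) and from 0 to 2215 CPM in Apoe-low cells (median 5.6). C1qb had medians of 8528 CPM in Apoe-high and 1722 CPM in Apoe-low cells, and C1qc of 1082 CPM in Apoe-high and 40 CPM in Apoe-low cells. Every Apoe-high cell held all 3 chains at 10 CPM or more, whereas 6, 11 and 8 of 13 Apoe-low cells did so for C1qa, C1qb and C1qc. The anaphylatoxin receptors C3ar1 (median 1523 CPM in Apoe-high, 6.5 CPM in Apoe-low cells) and C5ar1 (610.2 CPM in Apoe-high, 3.4 CPM in Apoe-low cells) were called as well.

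Of 27 lysosomal proteases and membrane proteins, 5 were called higher (18.5%, beside 1.46% over all genes) and none lower. A positive difference was found for 22 of 27, beside 41.2% of all genes. Ctsb, the protease cathepsin B, had a median of 9528 CPM in Apoe-high cells (1226 to 33792) and 2557 CPM in Apoe-low cells (70.8 to 11720). Cst3, an inhibitor of such proteases, had medians of 4384 CPM in Apoe-high and 1699 CPM in Apoe-low cells, and the Apoe-high cell was higher in 86.8% of pairs. Cd63, a tetraspanin of late endosomes, reached 10 CPM in 28 of 35 Apoe-high cells and in 0 of 13 Apoe-low cells, where its highest value was 9.2 CPM. Its value is uncertain because the table also lists the pseudogene Cd63-ps, which was called higher too. Lgmn (legumain) and Ctsc (cathepsin C) were also called, and the call of Ctsc, at 70.1% of pairs, was lost in 22 of the 48 comparisons that left out 1 cell. The iron and haem list had 2 of 13 genes called higher (15.4%, beside 1.46% over all genes) and 1 lower (7.69%, beside 4.61%). Those higher were Blvrb (biliverdin reductase) and Hpgd, which encodes an enzyme that breaks down prostaglandins and is not itself a gene of iron or haem. The lower one was Slc48a1, a haem transporter, whose call was lost without 1 of the 48 cells.

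Genes of lipid transport were called in both directions. Over all genes 1.46% were called higher, 4.61% were called lower and 41.2% had a positive difference, and most lists here had only 1 to 3 called members. Other apolipoproteins could not be judged from this list. The 2 genes compared, Apoo and Apool, were placed on it by name and were above 0 in 9 and 10 of the 75 cells. Neither was called, with the Apoe-high cell higher in 42.6% of pairs for Apoo and 51.8% for Apool. Of 13 lipoprotein and scavenger receptors, 3 were called higher, all scavenger receptors: Msr1 (median 132.6 CPM in Apoe-high and 1.0 CPM in Apoe-low cells), Cd36 (1221 CPM in Apoe-high and 45.9 CPM in Apoe-low cells) and Colec12, which reached 10 CPM in 14 of 35 Apoe-high and 0 of 13 Apoe-low cells. The list as a whole did not lie higher, since 5 of its 13 genes had a positive difference and the median was -0.50, beside -0.16 over all genes. Lrp1, a receptor for apolipoprotein E, was not called (median 6.4 CPM in Apoe-high and 84.8 CPM in Apoe-low cells, 32.2% of pairs). Of 16 cholesterol efflux and LXR genes, 1 was called higher and 2 lower, and the efflux transporters lay on opposite sides. Abca1 reached 10 CPM in 20 of 35 Apoe-high and 2 of 13 Apoe-low cells, with a difference of 2.82 and 74.1% of pairs. Abcg1 had a median of 0.6 CPM in Apoe-high cells (0 to 8005) and 1468 CPM in Apoe-low cells (0 to 3314), reached 10 CPM in 8 of 35 Apoe-high and 12 of 13 Apoe-low cells, and had a difference of -6.88. Lpl, lipoprotein lipase, was at 10 CPM in 9 of 35 Apoe-high and 8 of 13 Apoe-low cells, with a difference of -3.63, and its call was lost in 7 of the 48 comparisons that left out 1 cell. Of 18 cholesterol synthesis genes 1 was called lower (5.56%, near the 4.61% over all genes) and none higher, and 1 of the 18 had a positive difference. Gm2a, the activator protein of ganglioside breakdown in lysosomes, was the most separated lipid gene, with a median of 817.6 CPM in Apoe-high cells (3.7 to 3357) and 3017 CPM in Apoe-low cells (675.2 to 15958) and the Apoe-high cell higher in 7.69% of pairs. Of 19 genes of lysosomal lipid breakdown and export, Gm2a among them, 2 were called lower and none higher, while 12 had a positive difference and the median was 0.61. The list of lipid droplet and fatty acid genes had 2 of 18 called lower, Plin3 and Acsl4, and 0 higher. Plin3 lay on the limit at 30.0% of pairs, and its call was lost in 25 of the 48 comparisons that left out 1 cell. Of 11 genes of the lipid-associated, Trem2-type macrophage programme, Lgals3 and Ccl6 were called lower and none higher, and the call of Ccl6 (difference -1.03, 29.7% of pairs) was lost in 32 of the 48 comparisons that left out 1 cell.

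**Figure D2:**
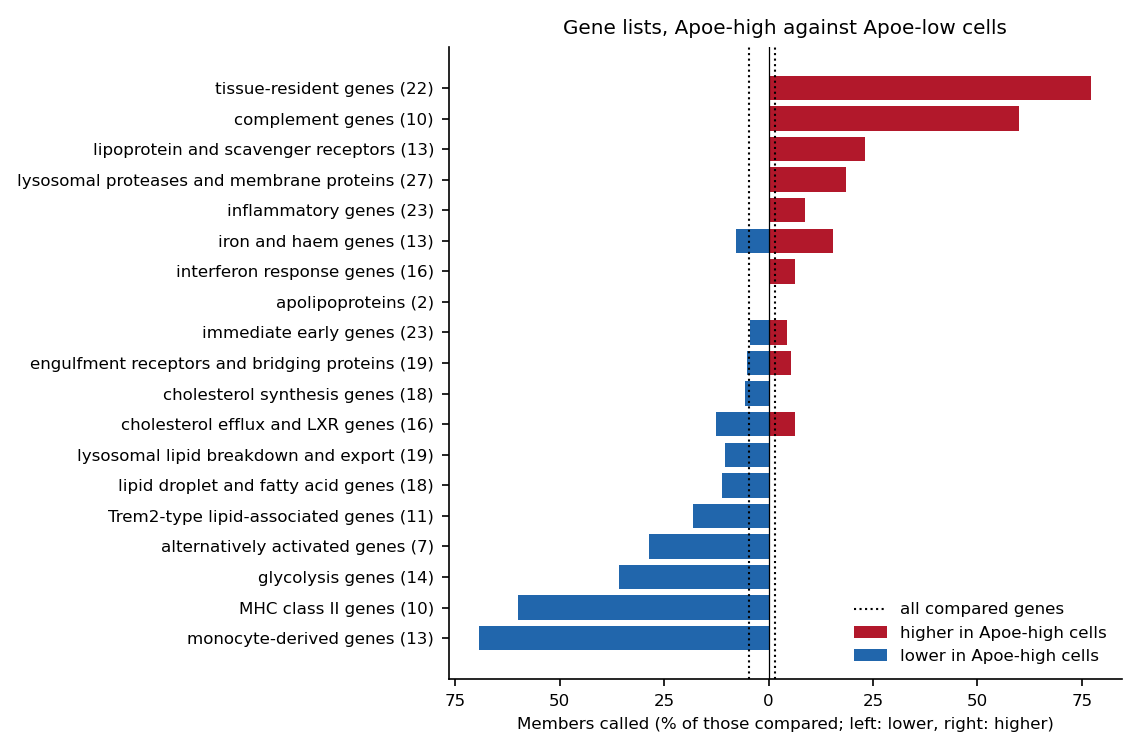
Bars give, for each gene list, the percentage of compared members called higher (right, red) and lower (left, blue) in Apoe-high than in Apoe-low cells, with the number compared after the name. Dotted lines mark the percentages over all 8350 genes, 1.46% higher and 4.61% lower, and tissue-resident and complement genes stand at the top and MHC class II and monocyte-derived genes at the bottom. The lists were chosen with earlier results of these data known, so their order is a description only.

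Monocyte-derived genes were lower in Apoe-high cells. Of 13 compared, 9 were called lower (69.2%, beside 4.61% over all genes) and none higher, at a median difference of -4.32. Their summed level ran from 26.4 to 14123 CPM in Apoe-high cells (median 3660) and from 7202 to 27937 CPM in Apoe-low cells (median 14911), and the Apoe-high cell was higher in 4.84% of pairs. Ccr2 ranged from 0 to 7943 CPM in Apoe-high cells (median 6.1) and from 153.8 to 5541 CPM in Apoe-low cells (median 2659). At 100 CPM it was present in 5 of 35 Apoe-high cells (14.3%, 4.81 to 30.3%) and in 13 of 13 Apoe-low cells (lower bound 75.3%). Fn1, fibronectin, had the largest difference of all genes, -8.67 (SD 0.74 in Apoe-high and 4.93 in Apoe-low cells). Its highest value was 9.8 CPM in Apoe-high cells, whereas 10 of 13 Apoe-low cells held 534.6 to 7428 CPM. S100a4, S100a10 and S100a11, relatives of S100a6, and Lsp1 (an actin-binding protein of leukocytes), Cd52 and the lectin Clec4b1 were called as well.

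The remaining leaders among the lower genes were Anxa2, Capg, Lgals3, Retnla, Ear2 and Plaur. Anxa2, a membrane-binding annexin, had a median of 5.4 CPM in Apoe-high cells (0 to 2408) and 2609 CPM in Apoe-low cells (79.1 to 6857). Lgals3, galectin 3, reached 10 CPM in 9 of 35 Apoe-high and 12 of 13 Apoe-low cells. Plaur, the urokinase receptor, was below 10 CPM in all 35 Apoe-high cells and at 10 CPM or more in 9 of 13 Apoe-low cells. Retnla, a secreted protein of alternatively activated macrophages, ranged from 0 to 1288 CPM in Apoe-high cells and from 1.4 to 57872 CPM in Apoe-low cells, and reached 1000 CPM in 1 of 35 Apoe-high and 8 of 13 Apoe-low cells. Ear2, an eosinophil-type ribonuclease, was at most 27.8 CPM in Apoe-high cells and up to 1649 CPM in Apoe-low cells. Ear2 has near-identical relatives, so its value is uncertain. The other 5 genes compared from the list of alternatively activated genes were not called.

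**Figure D3:**
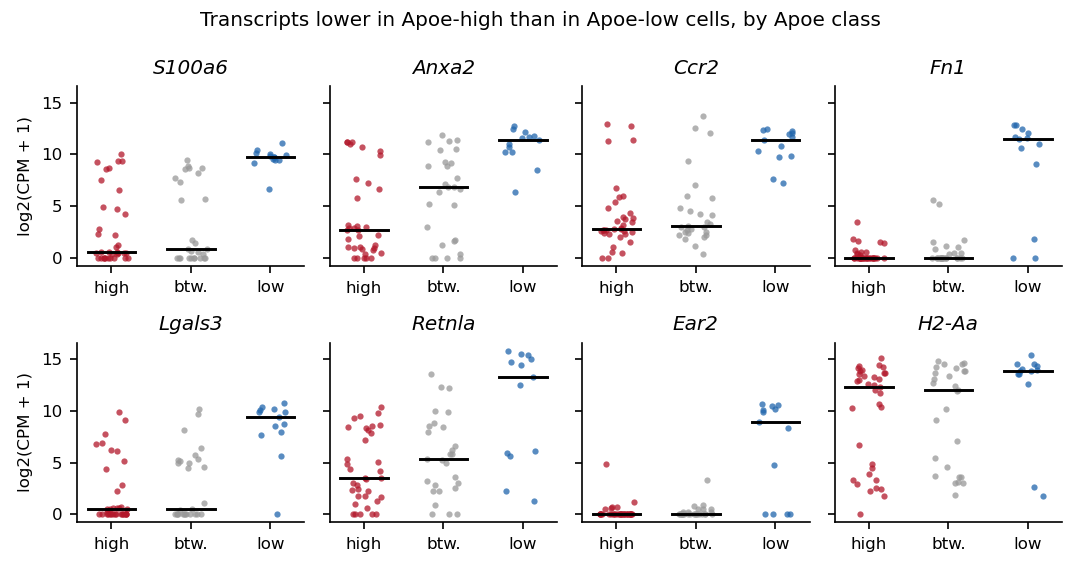
Each point is 1 cell, placed by log2(CPM + 1) of the gene named above the panel in Apoe-high cells (n = 35), cells between the thresholds (n = 27) and Apoe-low cells (n = 13), and bars mark medians. Fn1 and Ear2 are near 0 in nearly all cells but most of the Apoe-low ones, while H2-Aa is high in many cells of every class.

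MHC class II genes were partly lower. Of 10 compared, 6 were called lower (60%, beside 4.61% over all genes) and none higher. Their summed level ran from 8 to 145467 CPM in Apoe-high cells (median 33140) and from 220.8 to 174462 CPM in Apoe-low cells (median 71673), so that the ranges overlapped almost completely. H2-Aa, the α chain of I-A, had a median of 4919 CPM in Apoe-high and 15122 CPM in Apoe-low cells. H2-DMb2, a chain of the peptide-loading molecule, did not exceed 1.8 CPM in Apoe-high cells and reached 10 CPM in 7 of 13 Apoe-low cells. H2-DMb1 was called lower too, but it reached 10 CPM in 22 of 35 Apoe-high and 12 of 13 Apoe-low cells. Ciita, the master regulator of these genes, reached 10 CPM in 3 of 35 Apoe-high and 10 of 13 Apoe-low cells. Of 14 glycolysis genes, 5 were called lower (35.7%, beside 4.61% over all genes), Gpi1, Gapdh, Eno1, Pkm2 and Ldha. Gapdh and Eno1 are uncertain because of their many pseudogenes. Inflammatory, interferon response, immediate early and engulfment genes had at most 2 members called in either direction. Over all genes 1.46% were called higher and 4.61% lower. Of 23 inflammatory genes 2 were called higher (8.70%), and of 16 interferon response genes 1 (6.25%), with none lower on either list. Immediate early genes had 1 of 23 called higher and 1 lower (4.35% each), and engulfment genes 1 of 19 higher and 1 lower (5.26% each). The inflammatory genes called higher were the chemokines Ccl24 and Cxcl16, the call of Cxcl16 being lost in 4 of the 48 comparisons that left out 1 cell.

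The 13 Apoe-low cells were not alike. Fn1 was at 534.6 CPM or more in 10 of them and at 0 to 2.5 CPM in transcriptomes 6, 43 and 75. Retnla was at 5848 CPM or more in 8 cells and at 1.4 to 66.4 CPM in the other 5. Ear2 was at 325.1 CPM or more in 8 cells, all of which held Fn1, and at most 27 CPM in the other 5. H2-Aa was at 2.4 and 5.2 CPM in transcriptomes 43 and 58 and at 6220 CPM or more in the other 11. Macrophage markers summed to 8527 CPM in transcriptome 50 and to 24332 CPM or more in every other Apoe-low cell. Dendritic cell markers summed to 7050 CPM in transcriptome 50 and 5897 CPM in transcriptome 6, against at most 746.8 CPM in the other Apoe-low cells. In Apoe-high cells this dendritic sum ran up to 6428 CPM. Transcriptomes 6 and 50 were each left out singly in the comparisons that left out 1 cell, but their part together in the differences above was not tested. Tissue-resident genes summed to 50469 CPM in transcriptome 43 and 21836 CPM in transcriptome 75, against at most 14768 CPM in the other 11. Transcriptome 43 had the highest Apoe of the group, 478.8 CPM. It held Lyve1 at 971.6 CPM, Cbr2 at 5662 CPM, Stab1 at 1876 CPM and C1qb at 15178 CPM, together with S100a6 at 2147 CPM and Ccr2 at 1324 CPM. Transcriptome 75 had the lowest Apoe, 6.5 CPM, and held Folr2 at 730.3 CPM, Igf1 at 1017 CPM, Pf4 at 1633 CPM, C1qa at 1294 CPM and Sepp1 at 7272 CPM, with Lyve1 at 0.3 CPM. Outside transcriptome 43 Lyve1 did not exceed 64 CPM in any Apoe-low cell. Without transcriptome 43, 131 genes were called higher and 457 lower.

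The cells between the thresholds, at 1141 to 9867 CPM of Apoe, resembled the Apoe-high cells. Of 8350 genes 12 were called between Apoe-high cells and these 27 cells (0.144%), 6 higher (0.0719%) and 6 lower (0.0719%), with C3ar1 among those higher. Between these 27 cells and the Apoe-low cells, 487 genes were called (5.83%), 136 higher (1.63%) and 351 lower (4.2%). The groups differ in size. Tissue-resident genes called higher numbered 0 in the first of these comparisons and 16 in the second, and monocyte-derived genes called lower 0 and 8. Each comparison shares cells with the main one, so these are values side by side. Folr2 had a median of 1729 CPM in Apoe-high cells, 1888 CPM in cells between and 3.3 CPM in Apoe-low cells. Ccr2 had a median of 6.1 CPM in Apoe-high cells, 7.3 CPM in cells between and 2659 CPM in Apoe-low cells.

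Within the cells between, which the comparison did not use, the genes with the largest differences had weak correlations with Apoe. Of the 12 genes with the largest positive differences 9 had a positive Spearman correlation with Apoe over these 27 cells, from -0.0769 for Ms4a7 to 0.278 for Lyve1. Of the 12 with the largest negative differences 5 had a negative one, from -0.212 for Capg to 0.255 for Retnla. Over all genes 53.6% had a positive correlation there. Of the 122 genes called higher 63.9% had a positive one, and of the 385 called lower 44.4% had a negative one.

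**Figure D4:**
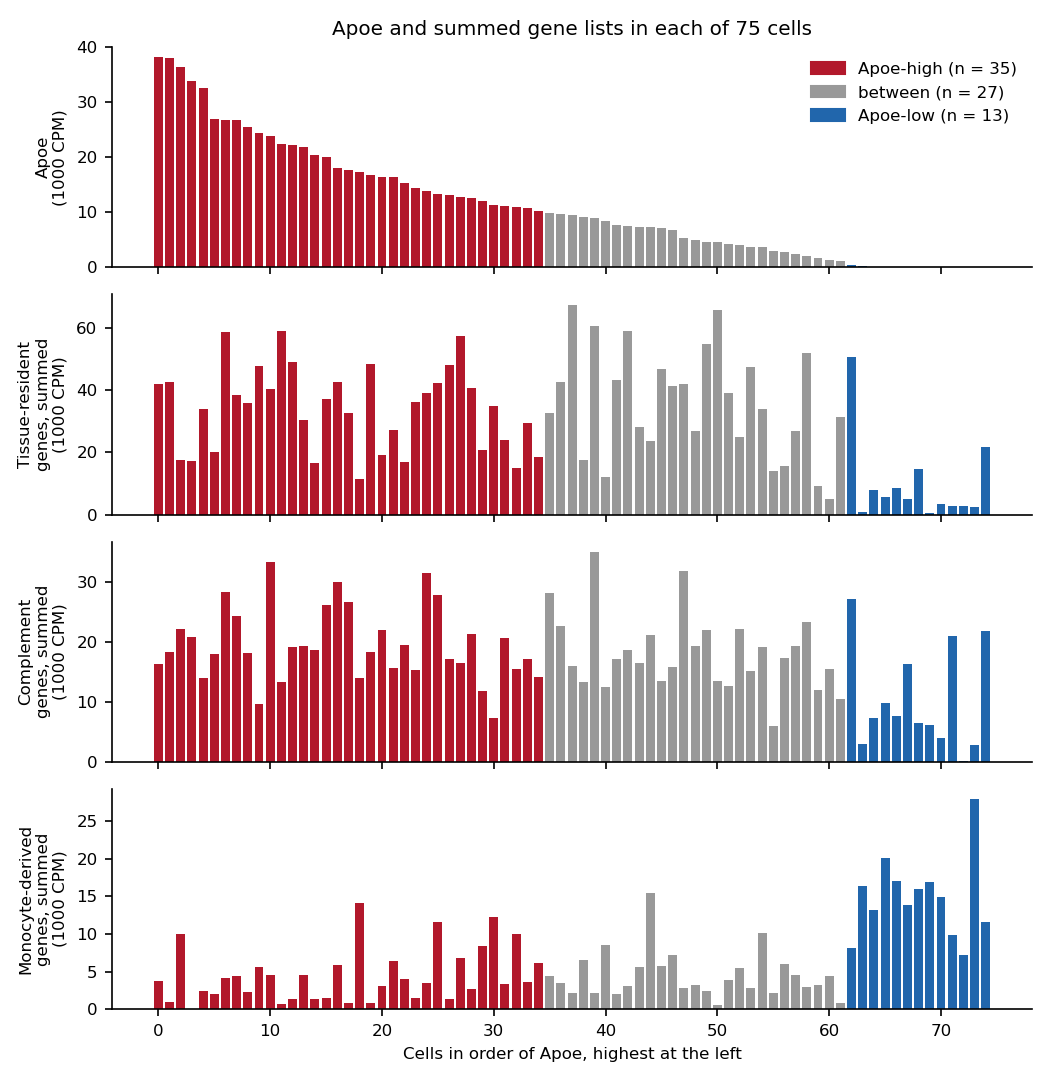
Bars give, for each of the 75 cells in order of Apoe with the highest at the left, Apoe and the summed levels of tissue-resident, complement and monocyte-derived genes in 1000 CPM. Apoe falls steadily along the axis, while the summed lists show no such slope among Apoe-high cells and cells between and change level at the Apoe-low cells, with transcriptome 43 as the first blue bar.

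Ccr2 was not specific to Apoe-low cells, which allowed cells with this receptor to be compared by Apoe. Of 23 cells with Ccr2 at 100 CPM or more, 10 were not Apoe-low (5 Apoe-high and 5 between) and 13 were. The 13 Apoe-low cells and 5 of the 10 others also belong to the main comparison. The genes named here were picked with its results known, so these are values side by side and not a second test. Ccr2 itself was not called, with a median of 3567 CPM in the 10 others (104 to 13014) and 2659 CPM in the Apoe-low cells (153.8 to 5541). H2-Aa did not differ by the rule either, with medians of 16446 CPM in the others and 15122 CPM in Apoe-low cells, and 3 of 10 MHC class II genes were called lower in the others. S100a6 stayed at 0 to 207.5 CPM in the 10 others and 97.2 to 2147 CPM in Apoe-low cells, and the other cell was higher in 0.769% of pairs. Fn1 did not exceed 47.1 CPM and Lgals3 did not exceed 34.8 CPM in the others, while 10 and 11 of 13 Apoe-low cells held them at 100 CPM. Other genes lower in Apoe-high cells were closer here. Capg had a median of 663.8 CPM in the others and 1861 CPM in Apoe-low cells, with a difference of -2.52, beside -5.62 between Apoe-high and Apoe-low cells. Retnla reached 12376 CPM in the others and 57872 CPM in Apoe-low cells, with a difference of -3.73 beside -6.28. Anxa2 was at 100 CPM or more in 6 of 10 others and 12 of 13 Apoe-low cells. C1qa was at 296.4 CPM or more in all 10 others, against 0 to 2215 CPM in Apoe-low cells, and Pf4 had a median of 2137 CPM in the others and 5.1 CPM in Apoe-low cells. In all, 237 genes were called higher (2.84%) and 535 lower (6.41%) in the 10 others than in the 13 Apoe-low cells.

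**Figure D5:**
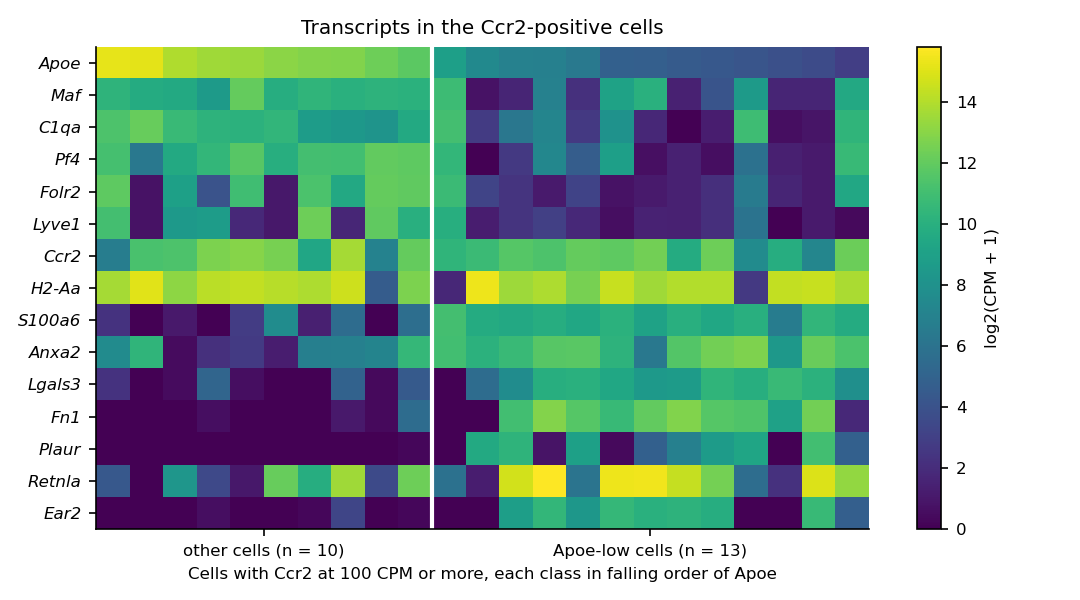
The colour gives log2(CPM + 1) of 15 genes (rows) in the 23 cells with Ccr2 at 100 CPM or more (columns), the 10 other cells left of the white line and the 13 Apoe-low cells right of it, each class in falling order of Apoe. Ccr2 and H2-Aa are high on both sides, S100a6, Lgals3 and Fn1 mostly on the right, and C1qa and Maf throughout the left.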

How the data were processed

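The authors deposited 1 table of CPM values (9235 genes, 76 libraries, 1 cell per library, 1 decimal), whose columns each total 1000000 apart from rounding. Alignment tool STAR (2.3.0), counting tool HTSeq (0.6.0) and genome mm9 are listed per the submitters' processing notes. No source used here gives the annotation. Per the labels' protocols cDNA came from the SMARTer kit and libraries from Nextera XT, which keep no strand and hold no molecular identifiers, so reads of a gene and its antisense partner cannot be told apart. Intervals for shares of cells are exact Clopper-Pearson 95% intervals and cover counting error only.

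Transcriptomes 13 and 19 were nearly identical (Pearson r of log2(CPM + 1) 0.978; the highest of the remaining 2849 pairs was 0.421) and were averaged as 1 cell. The CPM of 1 read was estimated from the steps of low values, which were whole multiples within 0.051 CPM for at least 97.8% of them in every library; 1000000 divided by it gave the depth. Genes above 0 in 8 or more of 75 cells were compared on log2(CPM + 1) (pseudocount 1) with Python 3.11.15, numpy 2.4.6, pandas 2.3.3 and scipy 1.17.1, and the script was tested on simulated data. No count model was fitted, because the cells are 1 sample. Named genes are the 12 largest differences in each direction among called genes at 10 CPM in at least 50% of the higher group, per list the 4 members above 0 in the most cells and all called members, called macrophage markers, and the 5 highest and 5 lowest correlations with Apoe; a selection is printed, and some genes are not reported here. The members, the 19 gene lists and the 14 marker lists were chosen with earlier results of these data known. Alternatives covered the pseudocount, low values, filters, thinning, composition, the averaged pair, both Apoe thresholds, genes detected, the call rule and each cell left out. Symbols are those of the table; 8175 of 9235 are current in RefSeq GRCm38.p6.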

Additional observations from a re-analysis of the deposited data

How the results depend on the processing

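Called genes numbered 122 higher and 385 lower in Apoe-high cells. The count of lower genes was 200 with values below 10 CPM set to 0 and 209 with Apoe-low cells taken below 2000 CPM (16 cells). With a pair share of 75% as the only rule 74 were higher and 167 lower. In cells above the median of genes detected (13 Apoe-high and 12 Apoe-low) 280 were higher and 10 lysosomal genes, in place of 5, were called; at or below that median only 1 Apoe-low cell was left, so no comparison was made. Of 10 MHC class II genes 3 were called at a pair share of 75%, and of 14 glycolysis genes 3 with that rule, with Apoe-high at 15000 CPM and with Apoe-low below 2000 CPM. A pseudocount of 10, no filter or one at 20 cells, thinning, leaving Apoe out of the total and counting the averaged pair as 2 cells kept every count within 1.5 times. Leaving out each cell in turn gave 114 to 140 higher and 378 to 457 lower genes, 16 to 17 tissue-resident, 6 to 7 complement, 4 to 6 lysosomal, 5 to 7 MHC class II, 9 to 10 monocyte-derived and 5 to 7 glycolysis genes. Of 89 named genes followed, none changed direction under these alternatives, but the call was lost for 22 at a pair share of 75%, 16 with Apoe-low below 2000 CPM, 9 with Apoe-high at 15000 CPM, 9 in cells above the median of genes detected, 9 without the cells with the fewest genes, 7 with values below 10 CPM set to 0, and 0 to 4 under each other one. Among cells with Ccr2 at 100 CPM or more, chosen after the data were examined, 237 genes were higher and 3 MHC class II genes were lower. Of the 89 named genes 66 kept their call there, and 19 lost it without a change of direction. The other 4 differences reversed: Ccl6 (0.0467), Ccr2 (0.24), H2-Aa (0.84) and H2-Ab1 (0.36). The causes were not tested. No paired analysis was possible because all cells belong to 1 labelled group. With 13 Apoe-low cells a share of 0 allows up to 24.7% (exact interval), so absence cannot be shown.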

Other observations

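Among called genes on none of the lists, chosen after their values were seen, were several Ms4a genes, which encode membrane proteins. Of 6 compared, 4 were called higher in Apoe-high cells, beside 1.46% of all genes, 1 was called lower (Ms4a8a, at 10 CPM in 0 of 35 Apoe-high and 6 of 13 Apoe-low cells) and Ms4a14 was not called. Ms4a6b reached 10 CPM in 27 of 35 Apoe-high and 1 of 13 Apoe-low cells, Ms4a6d in 21 Apoe-high and 0 Apoe-low cells, Ms4a6c in 32 and 4 of them, and Ms4a7 in 27 and 1. Ms4a6b, Ms4a6c and Ms4a6d are close relatives, so their counts are uncertain. Nrp1, a co-receptor of VEGF and semaphorins, had a median of 821.6 CPM in Apoe-high and 7.7 CPM in Apoe-low cells. Tgfbr2, a receptor of TGF-β, reached 10 CPM in 20 of 35 Apoe-high and 0 of 13 Apoe-low cells. Trf (transferrin) was at 52.7 CPM or more in every Apoe-high cell (median 471.9), against a median of 2.6 CPM in Apoe-low cells.

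The following genes called lower in Apoe-high cells were also chosen after their values were seen, and no list was counted. Crip1, a LIM-domain protein, had a median of 622.3 CPM in Apoe-high cells (6.1 to 7109) and 2113 CPM in Apoe-low cells (848.7 to 6355), and the Apoe-high cell was higher in 9.23% of pairs. Vim (vimentin) had medians of 83.8 CPM in Apoe-high and 1826 CPM in Apoe-low cells, Ahnak of 372.9 CPM in Apoe-high and 1600 CPM in Apoe-low cells, and Flna (filamin A) of 29.4 CPM in Apoe-high and 191.6 CPM in Apoe-low cells. Cd44, a hyaluronan receptor, reached 10 CPM in 18 of 35 Apoe-high and 11 of 13 Apoe-low cells. The integrin gene Itgb2 had a median of 3.7 CPM in Apoe-high and 2038 CPM in Apoe-low cells, and Itga4 of 4.0 CPM in Apoe-high and 203.2 CPM in Apoe-low cells. Id2, a regulator of transcription, had a median of 0.5 CPM in Apoe-high and 883.3 CPM in Apoe-low cells.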
